A study of Homo sapiens with 41 samples.

Results

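The 4 HOX clusters were followed through hypertonic stress in T47D, an established cell line from a luminal breast carcinoma. The analysis covers 38 HOX genes, out of 19970 protein-coding genes in the RefSeq table used, and takes them by their position in a cluster. HOXA (chromosome 7, 27100354 to 27200091 on hg38) contributed 10 genes, HOXB (chromosome 17, 48528526 to 48728750) 10, HOXC (chromosome 12, 53938831 to 54056030) 9 and HOXD (chromosome 2, 176087487 to 176190907) 9. For Pol II, the measurement was the percentage of each gene span that lay inside a called region. For CTCF and RAD21, every called peak in a cluster and in the 50 kb on both sides of it was used.

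Chromatin immunoprecipitation with sequencing gave 29 peak lists, and the 12 input samples among the 41 of the series have no list. All cells were kept without steroid hormones and then without serum overnight, which collects them in G0/G1, and the controls received nothing further. Stressed cells received 110 mM NaCl for 7.5 min, 30 min or 1 h, and recovery cells went back to isotonic medium for 1 h after 1 h of NaCl. Some cells were given 500 nM triptolide, an inhibitor of transcription initiation, for 2 h beforehand. Pol II was mapped in 2 libraries without stress and 2 at 1 h. For CTCF there were 3 untreated libraries, 3 at 1 h of NaCl, 2 at 7.5 min and 1 each at 30 min and in recovery, and RAD21 had 3 each without stress, at 1 h and in recovery. With triptolide there was 1 library for each factor without stress, at 1 h and in recovery.

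Hox genes encode homeodomain transcription factors that give cells their position along the body axis. They lie side by side in 4 clusters, numbered in the same order in each, and neighbouring genes tend to be switched on together while Polycomb complexes silence the rest. CTCF is a DNA-binding protein that halts the cohesin ring as it extrudes chromatin loops, RAD21 is a subunit of that ring, and sites bound by both can separate an active from a silent stretch of a Hox cluster. Several microRNAs and long non-coding RNAs, among them HOTAIR, are transcribed from within the clusters.

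The depth of sequencing is unknown here. List length is the nearest measure. It ran from 20678 to 59843 over the 13 CTCF lists, from 3344 to 40969 over the 12 RAD21 lists and from 88046 to 216968 over the 4 Pol II lists. A later submission, the second set, holds replicate 3 of CTCF and RAD21 without stress and at 1 h and of RAD21 in recovery, the CTCF recovery library and all triptolide libraries. Its titles carry no replicate number, so that the number 3 is only a name given here. In 6 of its 12 libraries the title and the pre-treatment tag disagree on triptolide, including both recovery libraries titled without it, and titles were followed. Pol II replicate 2 at 1 h had 216968 regions against 88046 to 107396 in the other lists, and RAD21 replicate 2 in recovery had 20400 peaks against 4397 and 6492. No 2 lists were identical, but nothing in the labels says that replicates were separate cultures, so the permutation p-values below measure only the spread between these libraries. Of 12 luminal breast genes, 8 were covered by Pol II over at least 50% of their length in both untreated lists, among them GATA3, ESR1, XBP1 and KRT19. The others were KRT18 and SPDEF (0% in both), KRT8 (39.8 and 25.1%) and TFF1 (51.4 and 9.31%). By the same rule 0 of 6 haematopoietic and 0 of 6 fibroblast genes qualified, though CD14 had 0 and 71.9% and CD3E 33.1 and 32.8%.

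A few sequences from the clusters are printed here, and the coverage and site counts below do not rest on them. The microRNAs of the clusters are shown because MIR196A2 lay in the stretch of HOXC where Pol II regions disappeared, while its relatives lie in HOXA and HOXB. Mature sequences are those of RefSeq (GRCh38.p14), 5′ to 3′, with the seed (bases 2 to 8) in capitals:
hsa-miR-196a-5p: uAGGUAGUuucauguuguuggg
hsa-miR-196b-5p: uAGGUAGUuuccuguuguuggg
hsa-miR-10a-5p: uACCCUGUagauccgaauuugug
hsa-miR-615-3p: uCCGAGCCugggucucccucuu
The first is made from both MIR196A2 (HOXC) and MIR196A1 (HOXB) and has the same seed as the second, from MIR196B (HOXA). The seeds of miR-10a-5p (MIR10A, HOXB) and miR-615-3p (MIR615, HOXC) differ from it and from each other.

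The promoter at the upstream HOXA10 start is shown because a CTCF peak summit lay in it in all 13 CTCF lists. The CTCF site there also overlaps the readthrough gene HOXA10-HOXA9. The window of the other HOXA10 start (27174271 to 27174570) held 0 CTCF summits, 0 RAD21 summits and no match to the motif core given below. The RefSeq table of promoters held 20 of the 38 genes, and HOXA10 and HOXA3 were the 2 with a summit in 10 lists or more. These are the 250 bases before the upstream HOXA10 start (GRCh38.p14, chr7:27179862-27180111, minus strand), with a match to the core of the CTCF motif, in capitals. The core was searched on both strands as CC, any 3 bases, AG, any 2 bases, GGC.
HOXA10: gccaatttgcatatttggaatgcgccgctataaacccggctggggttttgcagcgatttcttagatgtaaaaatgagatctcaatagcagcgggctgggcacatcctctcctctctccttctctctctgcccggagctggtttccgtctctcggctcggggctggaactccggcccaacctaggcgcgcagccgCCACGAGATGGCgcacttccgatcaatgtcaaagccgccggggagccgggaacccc
Of the 13 CTCF summits, 8 fell within these 12 letters (chromosome 7, 27179906 to 27179917) and the farthest lay 27.5 bp from their centre. The match is on the printed strand. Over 35116 promoter windows of 300 bases (250 before the start and 50 after it) the pattern was found in 10.6%, and it was found in 4 of the 27 windows of HOX genes. The HOXA3 window with summits in 12 lists, at 27150913 to 27150977, held no match.

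Before stress, Pol II covered a continuous stretch of HOXC and little of the other clusters. In replicate 1 a region of 42.2 kb (53966299 to 54008497) and one of 17.1 kb (54009777 to 54026853) ran from upstream of HOXC11 into HOXC6, and in replicate 2 a single region of 58.7 kb (53966929 to 54025600) did so. The first was wider than 99.4% of the regions in its list and the last wider than 99.7%. The deposited fold enrichments (a ratio) of these 3 regions were low, at 1.18, 1.79 and 1.68, with -log10 q of 1.81, 7.82 and 3.64. Coverage says where a region was called, and not how strong the signal was. Pol II regions covered 54.6 and 83.3% of the HOXC span without stress, and 5.30 and 14.2% after 1 h of NaCl. The widest HOXC region at 1 h was 4.77 kb in replicate 1 and 6.01 kb in replicate 2. The untreated and the 1 h lists did not overlap in this cluster. The other clusters were covered over 14.6 and 7.66% (HOXA), 20.8 and 20.9% (HOXB) and 2.74 and 3.01% (HOXD) without stress. At 1 h these became 9.78 and 2.37%, 20.6 and 16.9%, and 1.92 and 4.71%, so HOXB was slightly lower in both 1 h lists and the groups overlapped in HOXA and HOXD.

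**Figure D1:**
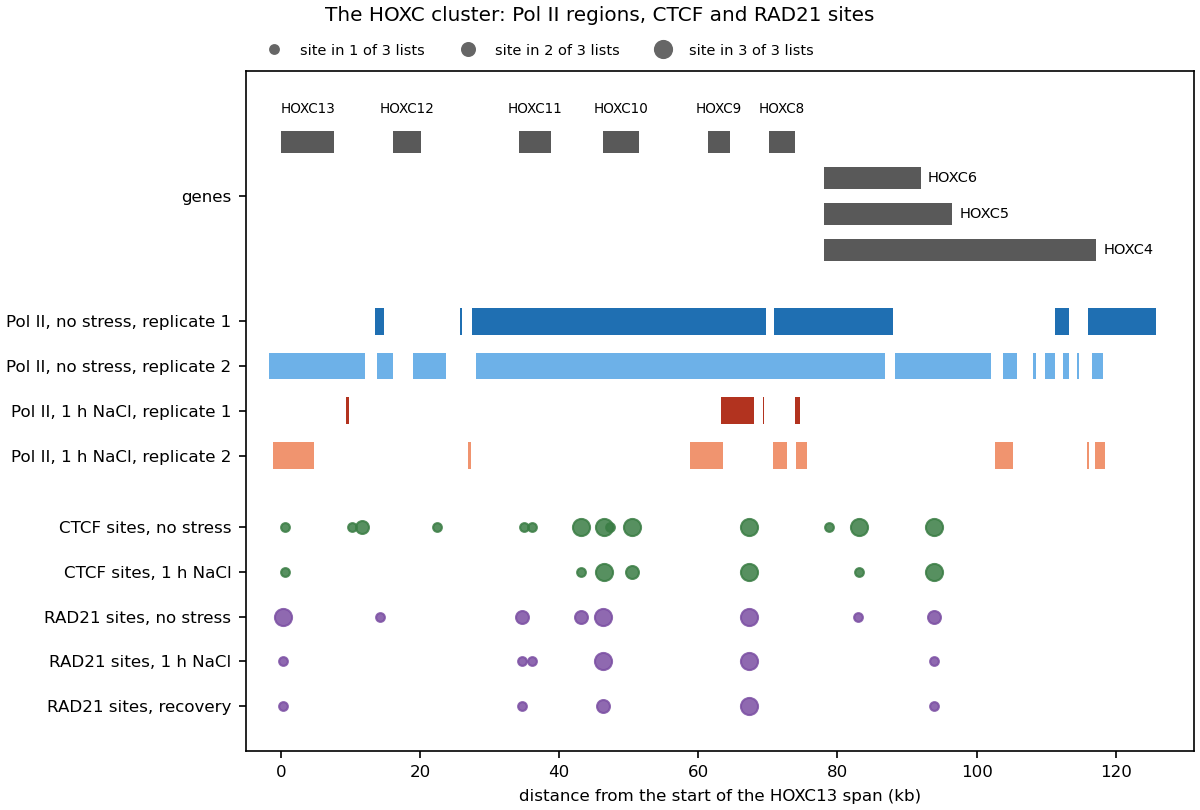
The HOXC cluster, with distance from the start of the HOXC13 span in kb on the x axis. Bars are gene spans and, below them, the Pol II regions of each list; circles are CTCF and RAD21 sites, sized by the number of lists (of 3 per condition) with a peak there. The long Pol II regions of both untreated lists have no counterpart at 1 h, while sites next to HOXC10 and HOXC9 stay in every list shown for CTCF.

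HOXC10 and HOXC11, posterior genes of the cluster, were covered over 100% of their length in both untreated lists and 0% in both 1 h lists. HOXC6 was covered over 71.5 and 89.7% without stress and HOXC5 over 53.9 and 92.2%, and both were at 0% in the 1 h lists. HOXC9 went from 100% in both lists to 37.9 and 70.0%. HOXC8 went from 79.1 and 100% to 1.48 and 55.2%, and HOXC4 from 33.7 and 72.7% to 0 and 7.81%. These 7 genes were lower in both 1 h lists than in both untreated ones. Counting only regions with a deposited -log10 q of at least 1.3, HOXC9, HOXC8 and HOXC4 were also at 0% in both 1 h lists.

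HOXC4, HOXC5 and HOXC6 share a start at 54016888 in the table and overlap, so their values are not independent, and one region of replicate 2 reaches from HOXC11 to HOXC6. HOXC13, the most 5′ gene of the cluster, and its neighbour HOXC12 did not separate. HOXC13 had 0 and 100% without stress and 0 and 62.8% at 1 h, and HOXC12 had 29.4% in 1 untreated list and 0% in the other 3. In a bulk of cells, fewer cells with Pol II at a gene and less Pol II per cell cannot be told apart.

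Over all 38 genes, 12 were lower in both 1 h lists, against 35.2% of all protein-coding genes, and 4 were higher, against 16.1%. The count of lower HOX genes is thus near the background. By cluster, 7 of 9 HOXC, 3 of 10 HOXB, 2 of 10 HOXA and 0 of 9 HOXD genes were lower. The median change was -61.2 percentage points in HOXC, -10.3 in HOXB and 0 in HOXA and HOXD. Over all 38 it was -4.43, compared with -1.61 over all protein-coding genes. That median rests on single lists, being 0 without either untreated list, -3.63 without 1 h replicate 1 and -0.33 without 1 h replicate 2. Without the last, 7 genes were higher, which is not to be read against 16.1%, since that share moves with the lists too. Without untreated replicate 1 it was 22.2%, with 4 HOX genes higher. With 2 lists a group no exact permutation test can pass 0.05, so no test was made.

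Genes already well covered fell in most of the genome, and HOXC has to be read against that. Of all genes, 18.3% were covered over at least 50% of their length in both untreated lists, and 75.7% of those were lower in both 1 h lists. Of HOX genes 7 qualified, HOXB2 and 6 of HOXC (HOXC5, HOXC6, HOXC8, HOXC9, HOXC10 and HOXC11), and the 6 of HOXC were lower. Their median change was -76.9 points, against -59.7 over the 3656 such genes. Of these 6, 4 had no coverage at all in either 1 h list, against 9.03% of such genes. The 6 lie in or reach into the same long untreated regions, so they are not separate observations. They and the 3656 genes were all chosen by high coverage in the untreated lists. Counting only regions with a deposited -log10 q of at least 1.3 left 7 HOXC genes lower, but 8 of 38 in all, where the background was 28.7%. The other one was HOXA10.

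**Figure D2:**
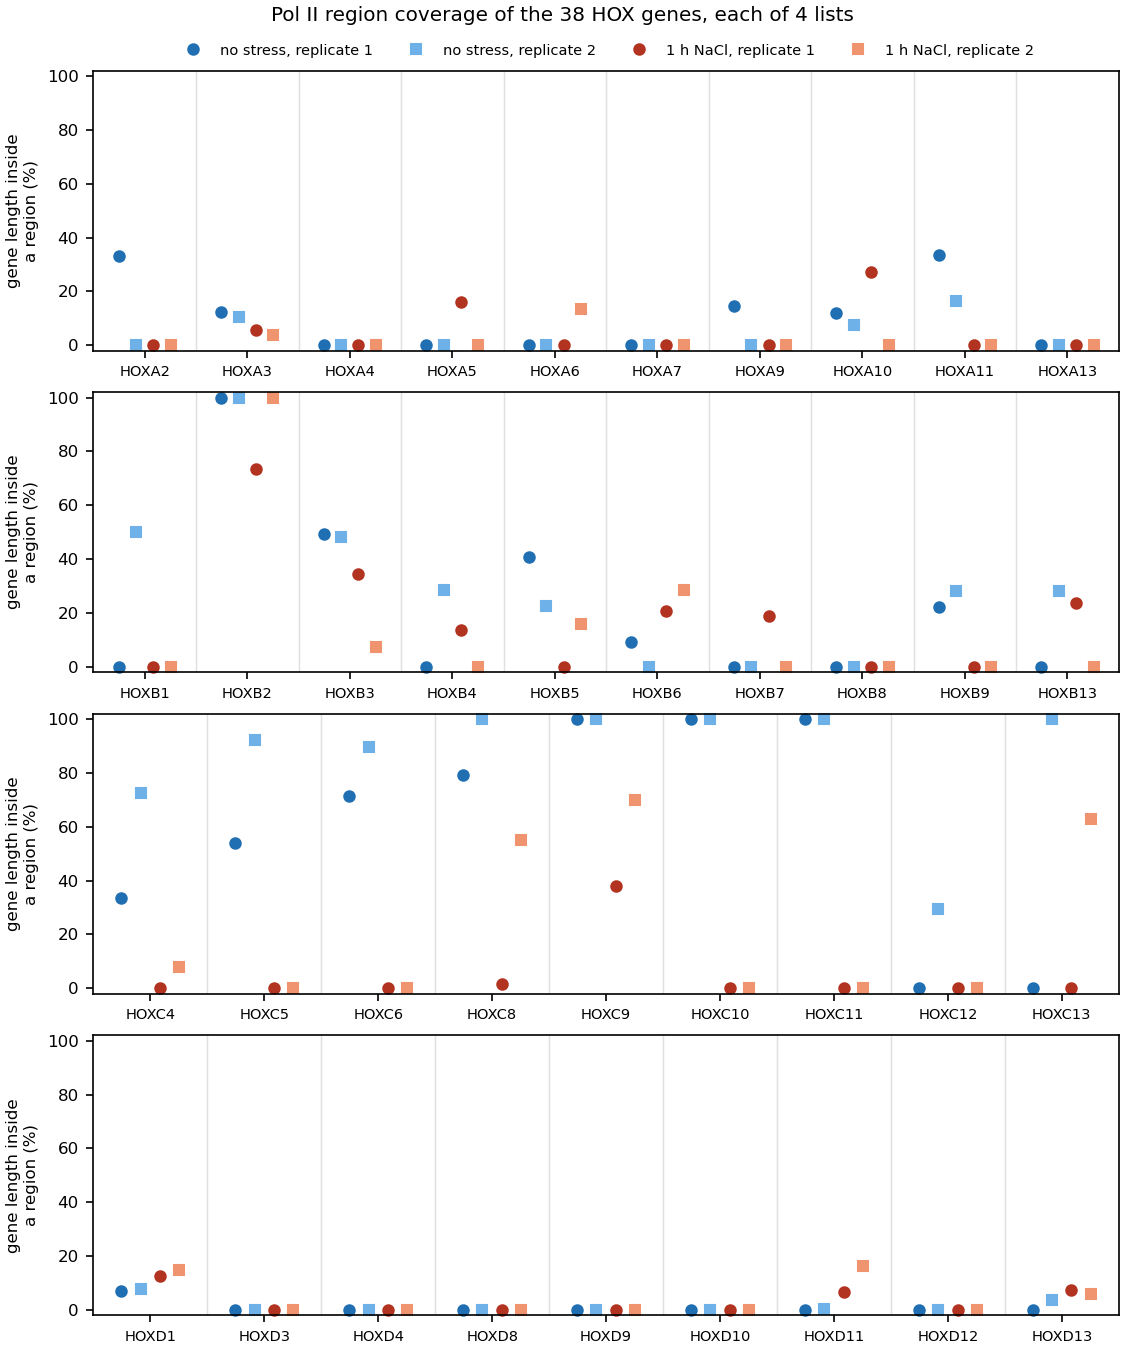
Percentage of each of the 38 HOX genes inside a Pol II region (y axis), by cluster, with 1 point for each of the 4 lists; blue points are without stress and red points after 1 h of NaCl. HOXC4 to HOXC11 have all blue points above all red points, HOXB2 stays near the top, and most HOXA and HOXD points lie near 0.

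In HOXB, HOXB2, a hindbrain patterning gene, was covered completely in both untreated lists and over 73.6 and 100% at 1 h. With regions of -log10 q of at least 1.3 it had 0 and 100% without stress and 73.6 and 0% at 1 h. Whether HOXB2 kept its coverage thus depends on the filter. HOXB3 had 49.4 and 48.3% without stress and 34.3 and 7.20% at 1 h. HOXB9 had 22.2 and 28.2% and then 0% in both lists, and HOXB5 40.9 and 22.7% and then 0 and 15.9%. These 3 were the lower genes of HOXB, and HOXB3 changed direction (to a difference of 3.76 points) when 1 kb on both sides of each gene end was used instead. With regions of -log10 q of at least 1.3 none of the 3 was lower, since the groups then met at 0 in HOXB5 and HOXB9 and overlapped in HOXB3. HOXB6 was the higher one, with 9.26 and 0% against 20.8 and 28.6%. HOXB4, HOXB7 and HOXB13, the gene nearest the prostate-expressed PRAC genes, were at or below 28.6% in every list and their groups overlapped. HOXB1 was covered in 1 untreated list (50.0%) and HOXB8 in none.

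In HOXA, HOXA11, a limb and uterus patterning gene, had 33.3 and 16.4% without stress and 0% in both 1 h lists. HOXA3 had 12.4 and 10.3% and then 5.67 and 3.61%. Both were lower, but at the gene ends the HOXA11 difference was 0.062 points in the other direction, and with -log10 q of at least 1.3 the groups of both genes met at 0. HOXA10 had 11.8 and 7.38% without stress and 27.3 and 0% at 1 h, so its groups overlapped. With -log10 q of at least 1.3 it had 11.8 and 4.56% and then 0% in both lists, lower by the same rule, and its difference turned from 4.09 to -8.17 points. HOXA2 and HOXA9 were covered in 1 untreated list (33.1 and 14.5%), and HOXA5 and HOXA6 in 1 list at 1 h (16.0 and 13.5%). HOXA4, HOXA7 and HOXA13 were at 0 in all 4 lists.

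In HOXD, 6 of 9 genes (HOXD3, HOXD4, HOXD8, HOXD9, HOXD10 and HOXD12) were at 0 in every list. Together with HOXA4, HOXA7, HOXA13 and HOXB8 these made 10 of 38 HOX genes, against 9.14% of all protein-coding genes. HOXD1 was at 6.92 and 7.63% without stress and 12.6 and 14.8% at 1 h. HOXD11 was at 0 and 0.25% and then 6.70 and 16.4%, and HOXD13, the digit patterning gene, at 0 and 3.48% and then 7.31 and 5.73%. All 3 were higher by this rule, yet with -log10 q of at least 1.3 0 of the 38 genes were higher, against 0.971% of all genes, and the 3 differences were negative (-0.96, -0.12 and -1.74 points).

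Most non-coding genes of HOXC changed in the direction of the HOX genes beside them. HOTAIR, a long non-coding RNA gene that starts within HOXC11 and runs antisense towards HOXC12, had 70.8 and 65.5% without stress and 0 and 2.59% at 1 h. HOXC-AS3, HOXC-AS2 and LOC124902939 went from 100% in both untreated lists to 0% in both 1 h lists. Of the 7 long non-coding genes in HOXC 5 were lower. Of the 23 in all 4 spans 8 were lower and 4 higher, against 14.9% lower and 16.4% higher among all such genes. HOXC-AS3, HOXC-AS2, LOC124902939 and most of HOTAIR lay in the same long untreated Pol II regions as HOXC11 to HOXC6. Their calls are thus not independent of each other or of those genes. Immunoprecipitated DNA carries no strand, so Pol II on a gene and on its antisense partner cannot be told apart. In HOXB the 3 lower ones were HOXB-AS1, HOXB-AS2 and HOXBLINC, which lie near HOXB2 and HOXB3, and 3 others were higher. These were HOXB-AS3 (13.4 and 8.98% against 17.9 and 31.6%), LINC03057 (9.10 and 19.6% against 44 and 35%) and LINC02086 (2.23 and 2.31% against 13.5 and 17.3%). The fourth higher one, HOXA11-AS, went from 0% in both untreated lists to 20.6 and 18.6%. Its 1 h regions had fold enrichments of 1.01 and 1.06 (replicate 1) and 1.00 (replicate 2), with -log10 q of 0.008, 0.005 and 0. No 1 h region in LINC03057 or LINC02086 reached a -log10 q of 1.3, while regions of replicate 2 in HOXB-AS3 did (2.59 and 4.25). That filter was not applied to the non-coding genes. Among protein-coding genes it left 0.971% higher, against 16.1% without it.

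MIR196A2, between HOXC10 and HOXC9, was covered completely in both untreated lists and not at all at 1 h. It was the 1 of 8 microRNA genes in the spans that was lower, against 10.3% of all microRNA genes, and 9.63% went from full coverage in both lists to none in both as it did. MIR196A1, the HOXB source of the same mature sequence printed above, had 100 and 0% without stress and 45.7 and 0% at 1 h. MIR10A had 100 and 0% and then 0% in both, and MIR615 0 and 100% and then 0% in both. MIR196B and MIR10B were at 0 in all lists. A microRNA gene is so short that it is nearly always wholly inside or outside a region, and coverage of the gene says nothing of the level of the mature RNA.

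Genes that act with the HOX proteins did not share one direction. Of 8 cofactor genes of the PBX, MEIS and PKNOX families 1 was lower and 4 were higher. The background for each list here is 35.2% of all protein-coding genes lower and 16.1% higher. These lists were counted without the filter of -log10 q of at least 1.3. With it, 28.7% of all protein-coding genes were lower and only 0.971% higher. MEIS3, which encodes a DNA-binding partner of HOX proteins, went from 0% in both untreated lists to 94.1 and 89.9% at 1 h. MEIS1, of the same family, went from 3.15 and 3.02% to 0 and 1.90%. Of 16 Polycomb and trithorax genes, which keep HOX genes silent or active, 8 were lower and 1 higher. In 8 of the 16 at least 50% of the length was covered in both untreated lists, and 75.7% of all such genes were lower. SUZ12, a core subunit of the Polycomb complex that methylates histone H3, went from 98.1 and 56.6% to 0 and 8.05%. KMT2A, a trithorax methyltransferase, went from 98.9 and 85.6% to 48.3 and 21.3%, and CBX2 rose to 100% in both lists from 47.8 and 90.8%. Of 15 genes next to the clusters 7 were lower and 1 higher. CBX5, past the 3′ end of HOXC, had 85.1 and 86.9% and then 9.76 and 12.1%. The 6 ParaHox and CDX genes, relatives outside the clusters, had 1 lower and 0 higher.

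CTCF was called at 63 sites in the 4 windows over all 13 lists, with 12 in HOXA, 21 in HOXB, 18 in HOXC and 12 in HOXD. A site is the merged extent of overlapping peaks. Of these, 20 sites had a peak in all 13 lists, against 15.8% of the CTCF sites of the genome, and they numbered 3 in HOXA, 9 in HOXB, 3 in HOXC and 5 in HOXD. A further 18 of the 63 were in a single list, against 24.2%. In all, 32 of 63 lay inside one of the HOX genes.

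Of the 20 recurrent sites 12 lay outside every HOX gene. In HOXD the 5 were beside and inside HOXD13 (176085933 to 176086708 and 176088004 to 176088842), between HOXD13 and HOXD12 (176097374 to 176098104), inside HOXD11 (176111096 to 176111681), and 7.67 kb from HOXD8 (176140362 to 176141183). In HOXC they were at HOXC10 (53984747 to 53985766), between HOXC9 and HOXC8 (54005718 to 54006386) and in the shared span of HOXC4 and HOXC5 (54032435 to 54033005). In HOXA they were between HOXA7 and HOXA9 (27160599 to 27161527), at the HOXA10 promoter printed above (27179533 to 27180190) and 10.1 kb from HOXA13 (27210160 to 27210884). In HOXB 3 of the 9 lay inside a member gene. These were in HOXB3 (48585193 to 48586118), in HOXB6 (48602304 to 48603160) and at HOXB13 (48724357 to 48725033). The median width over which the summits of a recurrent site scattered was 43 bp. By fold enrichment within untreated lists the 20 sites lay at a median percentile of 75.5, the lowest at 50.6.

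After 1 h of NaCl no CTCF site called in every untreated list was missing from every 1 h list. Sites in only some untreated lists were not counted as lost. Some of them, such as one in HOXB8 (48612889 to 48613437), were in no 1 h list. Of 27 sites called in every untreated list, 22 were called in every 1 h list, where 57.1% of such sites of the genome were. Sites in no 1 h list numbered 0, against 5.81%, and sites gained in all 1 h lists 0, against 0.265%. With 27 sites, 0 is near either share. The 22 kept sites comprised 5 of 6 in HOXA, 9 of 9 in HOXB, 3 of 6 in HOXC and 5 of 6 in HOXD. The other 5 were called in some 1 h lists, and 3 of them were in HOXC, upstream of HOXC10 (53981566 to 53982395), inside it (53989112 to 53989541) and in HOXC4 to HOXC6 (54021580 to 54022206). The other 2 were a site in HOXA3 (27136118 to 27136839) and one in HOXD10 (176118873 to 176119335), each absent from replicate 3 alone among the 1 h lists. The 22 kept sites lay at percentiles 30.0 to 91.9 of fold enrichment within untreated lists (median of the 3 lists). The 5 not kept lay at 20.6 to 88.6, and genome sites of like fold enrichment were not compared.

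The lost count depended on which libraries are required. Leaving out untreated replicate 2 gave 4, leaving out untreated replicate 3 or 1 h replicate 1 gave 2, the first set alone gave 2 of 32, and the second set alone, with 1 library a condition, gave 17 of 42. The genome share of lost sites was not computed under these settings. The share of kept sites moved with single libraries too. Without 1 h replicate 3, 25 of 27 were kept against 88.2% in the genome, and without untreated replicate 3, 23 of 32 against 35%.

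CTCF peak numbers at 1 h were lowest relative to no stress in HOXC, then in HOXB. HOXC had 11, 6 and 11 peaks without stress and 6, 4 and 4 at 1 h, a log2 ratio of -0.97 (exact 2-sided permutation p = 0.2), with the groups touching at 6. HOXB had 18, 13 and 13 and then 9, 11 and 9, a log2 ratio of -0.59 with no overlap (exact 2-sided permutation p = 0.1, the smallest that 3 against 3 allows). HOXA had 8, 6 and 10 and then 7, 6 and 7 (log2 ratio -0.24, exact 2-sided permutation p = 0.5). HOXD had 10, 7 and 8 and then 8, 7 and 8 (log2 ratio -0.11, exact 2-sided permutation p = 0.9). None of these 4 comparisons could pass 0.05, and adjustment would only raise their p-values.

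Over the 4 windows the numbers were 40.3 ± 7.64 and 28.7 ± 1.15 (SD, n = 3), a log2 ratio of -0.48 where whole lists had -0.64. With the 22018 strongest peaks of every list, the length of the shortest, this ratio was 0.045, so its sign changed once lists were of one length. By window it was then 0 in HOXB, -0.38 in HOXC, 0.18 in HOXA and 0.27 in HOXD.

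CTCF sites that overlapped a RAD21 site of every untreated list were kept in the larger share. Of the 27 shared sites, 16 overlapped a RAD21 site called in every untreated RAD21 list, and all 16 were kept. Of the 11 others 6 were kept. The genome showed the same order, with 80.9% kept of sites with such a RAD21 site and 43.4% of the others. The others are not all free of RAD21. The sites in HOXA13 (27195900 to 27196615) and in HOXC4 and HOXC5 (54032435 to 54033005) each overlapped it in 6 of 12 lists. The HOXA10 promoter site belongs to the second kind, with a RAD21 peak in 1 of 12 lists, and the HOXD11 site too, with 0 of 12. Both were in all 13 CTCF lists.

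**Figure D3:**
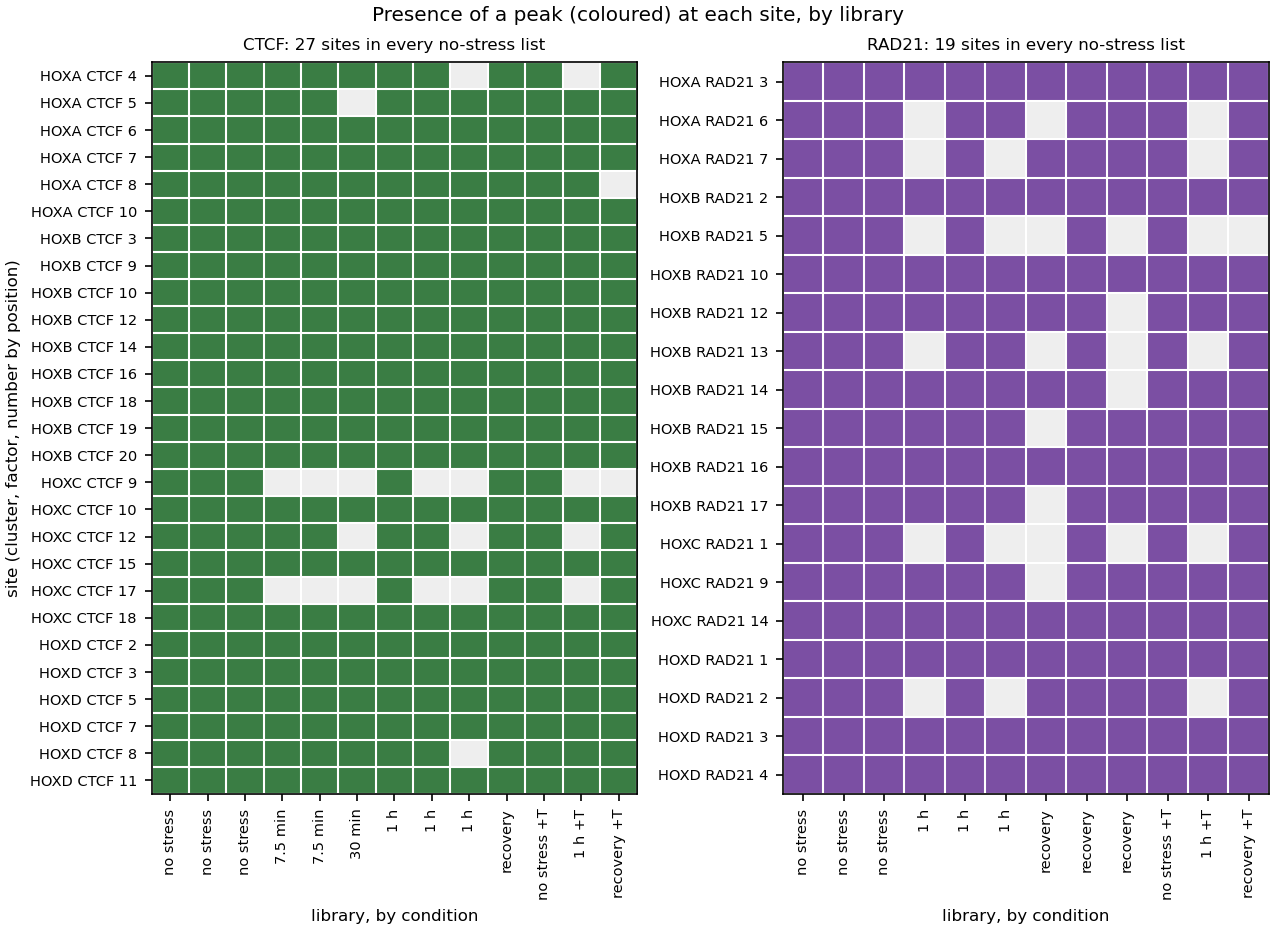
Presence of a peak (coloured) or none (grey) at each site called in every no-stress list, by library on the x axis, for CTCF (27 sites, left) and RAD21 (19 sites, right); +T marks triptolide. All 9 HOXB rows of CTCF are coloured throughout, grey cells of CTCF gather in HOXC 9, 12 and 17, and those of RAD21 in the 1 h and recovery columns.

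At 7.5 min of stress CTCF sites in HOXA and HOXD were all kept. In the first set, 32 sites were in both untreated lists, and 27 of them were in both 7.5 min lists and 5 in neither, against 67.9 and 20.6% in the genome. None was gained in both, against 0.537%. The 5 were 3 in HOXB and 2 in HOXC. HOXC had 4 and 4 peaks at 7.5 min against 11 and 6 without stress, and HOXB 10 and 10 against 18 and 13. The single 30 min library had 5, 9, 3 and 7 peaks in HOXA, HOXB, HOXC and HOXD, and 23 of the 27 sites shared by untreated lists. The 5 lost sites became 17 without untreated replicate 2, and 0 with lists of one length (31074 peaks), where 27 of 27 were kept.

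In the 1 CTCF library of recovery, all 27 shared sites had a peak. HOXC had 14 peaks in it and HOXB 15, against 4 and 9 in the 1 h library of the same set and 11 and 13 in its untreated library. There is no replicate of this condition, and its tag names triptolide where its title does not.

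RAD21 was called at 45 sites in the windows, with 7 in HOXA, 18 in HOXB, 16 in HOXC and 4 in HOXD, and 33 of them overlapped a CTCF site. The sites present in all 12 lists numbered 8, against 3.97% of the RAD21 sites of the genome. They were 1 in HOXA, between HOXA7 and HOXA9 (27160678 to 27161397), 3 in HOXB, 1 in HOXC, between HOXC9 and HOXC8 (54005890 to 54006487), and 3 in HOXD, on both sides of HOXD13 (176085919 to 176086675 and 176097379 to 176098014) and 7.70 kb from HOXD8 (176140397 to 176141202). All 8 coincided with CTCF sites that were in all 13 CTCF lists. By fold enrichment within untreated RAD21 lists the 8 lay at a median percentile of 94.3, the lowest at 76.1. The 3 of HOXB were 35.4 kb from HOXB1 (48492381 to 48493123), in HOXB3 (48584854 to 48586140) and between HOXB9 and HOXB13 (48678321 to 48678887).

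After 1 h of NaCl 13 of the 19 RAD21 sites shared by the untreated lists were in every 1 h list, where 34.5% of such sites of the genome were. None was in no 1 h list, against 32.2%, and 0 were gained, against 0.0131%. The count of lost sites was 4 without 1 h replicate 2, 3 without untreated replicate 2, 1 without untreated replicate 1 and 14 of 29 within the second set, with 1 library a condition. For these settings the genome share of lost sites was not computed. HOXB kept 7 of 9, HOXD 3 of 4, HOXC 2 of 3 and HOXA 1 of 3. With 4761 strongest peaks in every list 12 of 13 were kept, against 66.4% in the genome. In the full lists, the 13 kept sites lay at percentiles 63.7 to 98.8 of fold enrichment within untreated lists (median of the 3 lists). The other 6 lay at 7.48 to 75.3, and genome sites of like fold enrichment were not compared.

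Peak numbers in the windows were 26 ± 3 without stress and 17.7 ± 5.51 at 1 h (SD, n = 3), a log2 ratio of -0.59 against -1.55 for whole lists. HOXC had 6, 5 and 7 peaks and then 2, 7 and 2 (log2 ratio -0.97, exact 2-sided permutation p = 0.4), with replicate 2 at 1 h as high as the highest untreated list. HOXB had 10, 11 and 13 and then 7, 9 and 8 (log2 ratio -0.50, exact 2-sided permutation p = 0.1). HOXA had 6, 3 and 5 and then 2, 4 and 2 (log2 ratio -0.83, exact 2-sided permutation p = 0.2). HOXD had 4 in each untreated list and 3, 4 and 3 at 1 h (log2 ratio -0.28, exact 2-sided permutation p = 0.4). At equal list length the ratio over the windows was 0.058 in place of -0.59.

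After 1 h of recovery, RAD21 peak numbers in the windows overlapped those at 1 h of NaCl. Of the 13 sites in every 1 h list, 8 were in every recovery list and 0 in none of them, against 60.5 and 0.507% in the genome, and 0 were gained, against 1.03%. Of the 19 sites in every untreated list 10 were in every recovery list (35.2% in the genome) and 0 in no recovery list (1.98%). Peak numbers were 17 ± 7 (SD, n = 3), a log2 ratio of -0.088 against 1 h, with exact 2-sided permutation p = 1 in HOXA and HOXC and 0.4 in HOXB and HOXD. HOXD returned to 4 peaks in all 3 lists. HOXC had 1, 7 and 2 and HOXB 5, 10 and 5, with the high value in each from replicate 2, whose list was the longest. That library held 19 of the 19 shared sites, and replicates 1 and 3 held 12 and 14. Without it the log2 ratio against 1 h was -0.40. Without 1 h replicate 2, recovery replicate 1 or recovery replicate 3 it was positive (0.15, 0.13 and 0.015), so its sign rests on single libraries. The tag of recovery replicate 3 names triptolide where its title does not.

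**Figure D4:**
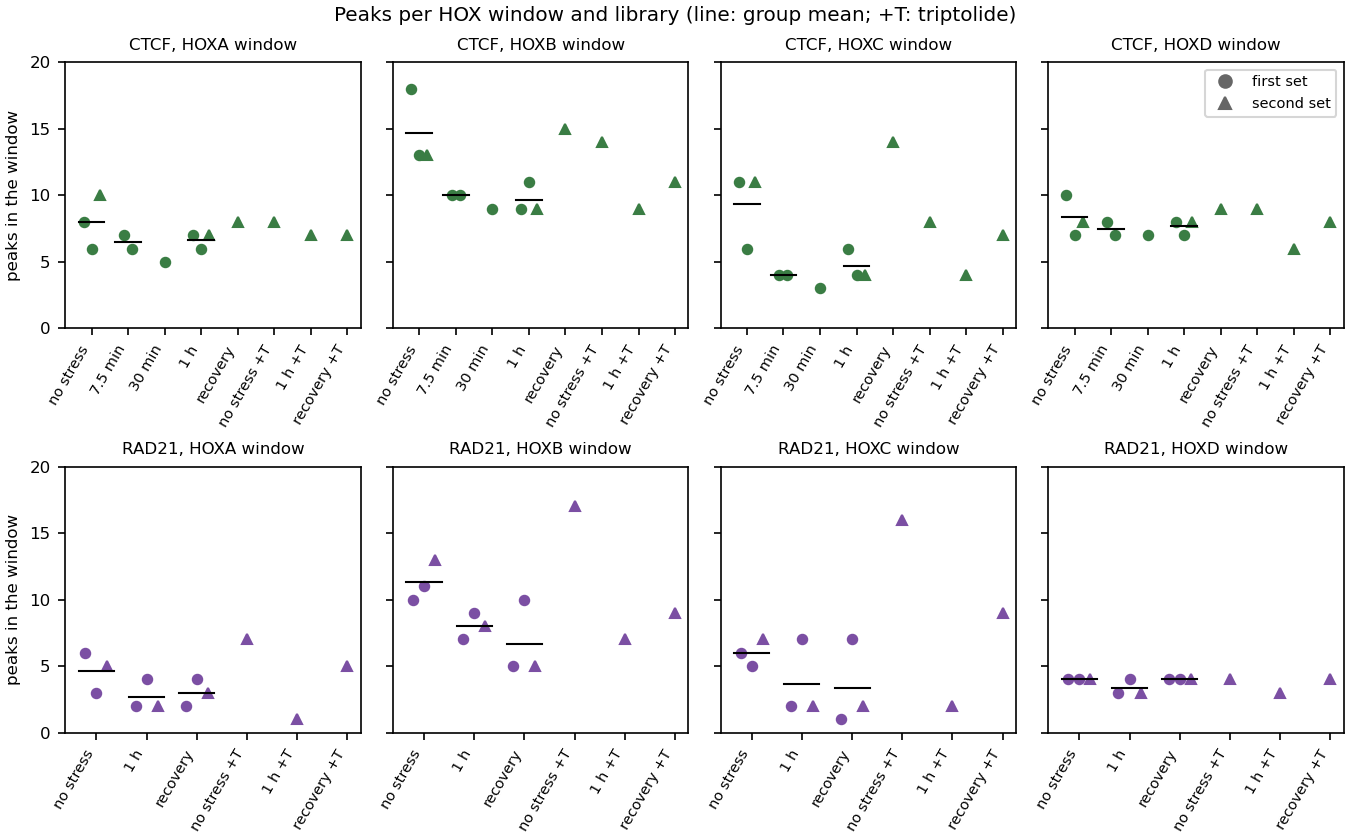
Number of peaks (y axis) in each HOX window, by condition, for CTCF (top) and RAD21 (bottom); each point is a library, circles from the first set and triangles from the second, lines are group means, and +T marks triptolide. HOXD holds 3 or 4 peaks in every RAD21 list, and the unstressed triptolide library stands highest in HOXB and HOXC with 17 and 16.

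With triptolide, compared within the second set and with 1 library a condition, CTCF numbers in the windows were 39 against 42 without stress, 26 against 28 at 1 h and 33 against 46 in recovery. Whole CTCF lists had 41718 against 38571, 20678 against 22018 and 34517 against 46377. The same 27 sites were all present in the unstressed triptolide list. For RAD21 the numbers were 44 against 29 without stress, 13 against 15 at 1 h and 27 against 14 in recovery. Titles and tags disagree on triptolide in 6 of the 12 libraries of this set, among them both recovery libraries taken as without it. The contrasts hold only if the titles are right.

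HOXC held most of the RAD21 difference, with 16 against 7 peaks without stress and 9 against 2 in recovery, while HOXD had 4 against 4 in both. Of the RAD21 sites in the windows 10 were in the unstressed triptolide list alone, 6 of them in HOXC, 3 in HOXB and 1 in HOXA. Whole RAD21 lists went from 24931 peaks to 40969 with triptolide without stress, from 6630 to 3344 at 1 h and from 6492 to 22967 in recovery, and 25.5% of all RAD21 sites of the genome were in that list alone. At equal list length the windows had 31 against 29 peaks without stress and 15 against 14 in recovery.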

How the data were processed

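Peak lists were called by the authors on single libraries. The submitters' processing notes name cutadapt, Bowtie2 2.2.6, MACS2, DiffBind 2.4.6, DESeq2, HOMER and hg38, without roles; the calling threshold is not given in the sources used here. For each peak the authors deposited a fold enrichment (a ratio), -log10 p and -log10 q values and an integer score, used only within a list. The genes, lists and comparisons were chosen with earlier results of these data known. Samples were grouped by title.

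Gene spans came from RefSeq (GRCh38.p14). A gene was lower or higher when both 1 h coverages lay below or above both untreated ones. Peaks of all lists of a factor that overlapped by 1 bp were merged into sites. A site was kept when in every list of both groups, lost when in every list of the first and none of the second. Log2 peak numbers per window were compared by exact 2-sided permutation tests. Python 3.11.15, numpy 2.4.6 and pandas 2.3.3 were used, and the code was tested on simulated data. Named are HOX genes with coverage above 0 in any list, sites shared by the untreated lists, and members of the gene lists. Alternatives were gene ends, -log10 q filters (1.3 for Pol II, 5 otherwise), lists of equal length, windows without flanks, summits within 100 bp, single sets, a replicate block and leaving out each replicate. One gene of the cofactor list is not reported here.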

Additional observations from a re-analysis of the deposited data

Results flagged for a closer look

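In some windows the triptolide library had more peaks than its counterpart in one state and fewer in another. Each state has 1 library with and 1 without triptolide by title, and the difference between states was not tested. The tags of both recovery libraries titled without triptolide name it. For RAD21 the difference in HOXB was 4 peaks without stress (17 against 13), -1 at 1 h (7 against 8) and 4 in recovery (9 against 5). In HOXA it was 2 without stress (7 against 5), -1 at 1 h (1 against 2) and 2 in recovery (5 against 3). For CTCF the difference in HOXB was 1 peak without stress (14 against 13) and -4 in recovery (11 against 15). In HOXD it was 1 without stress (9 against 8), -2 at 1 h (6 against 8) and -1 in recovery (8 against 9).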

How the results depend on the processing

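HOXC genes lower in Pol II coverage numbered 7 to 9 under every alternative run. Over all genes 35.2% were lower in the main setting, 36.8% at gene ends, 28.7% with -log10 q of at least 1.3 and 42.8% without untreated replicate 1. Pol II genes called higher numbered 4, but 1 at gene ends, 0 with -log10 q of at least 1.3, and 4 to 7 leaving out a library (7 without 1 h replicate 2). The shares of all genes were 16.1% in the main setting, 6.57% at gene ends, 0.971% with that filter and 22.2% without untreated replicate 1. The median change over the 38 genes, -4.43 points, was -2.56 at gene ends, -0.54 with the q filter and -3.63 to 0 leaving out a library. Among genes called lower or higher, differences that changed sign were, at gene ends, HOXD13 (-17.9), HOXD1 (-2.17), HOXA11 (0.062) and HOXB3 (3.76), and with the q filter HOXD13 (-1.74), HOXD11 (-0.12), HOXD1 (-0.96) and HOXB3 (0.0060). Of genes whose groups overlap, HOXA10 turned to -8.17 with the q filter and -9.58 without 1 h replicate 1. HOXC13 (31.4), HOXB4 (6.80) and HOXB13 (11.9) turned without untreated replicate 2, HOXC13 (12.8) without 1 h replicate 1 and HOXB13 (9.79) without 1 h replicate 2.

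With lists of equal length the log2 ratio at 1 h was 0.045 for CTCF (HOXA 0.18, HOXD 0.27) and 0.058 for RAD21 (HOXB 0.21, HOXC 0.19). It was -0.050 for CTCF at 7.5 min. Lost sites then numbered 2, 0 and 0, and 2 for RAD21 in recovery. With triptolide, equal length gave log2 ratios of 0.057 for CTCF at 1 h and 0.100 for RAD21 in recovery. Without flanks the CTCF ratio in HOXD was 0.0099, and joining summits within 100 bp gave 1 lost CTCF site. Within single sets, lost CTCF sites numbered 2 and 17, and lost RAD21 sites 14 in the second set.

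Leaving out each library in turn, lost sites ranged from 0 to 4 (CTCF at 1 h), 0 to 4 (RAD21 at 1 h), 0 to 1 (RAD21 in recovery) and 5 to 17 (CTCF at 7.5 min). The RAD21 recovery ratio ranged from -0.40 to 0.15. Window ratios that changed sign ranged from -0.23 to 0.032 for CTCF in HOXD at 1 h, from -0.30 to 0.11 (HOXA) and -0.42 to 0.096 (HOXD) for CTCF at 7.5 min, and from -1.10 to 0.30 (HOXC) and -0.041 to 0.53 (HOXA) for RAD21 in recovery. Over the windows the RAD21 recovery ratio was 0.15, 0.13 and 0.015 without 1 h replicate 2, recovery replicate 1 and recovery replicate 3. The cause was not tested.

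With replicates 1 and 2 compared within their number (a replicate block), Pol II gave 12 lower and 4 higher genes, and the lost sites numbered 2 (CTCF at 1 h), 0 (RAD21 at 1 h), 1 (RAD21 in recovery) and 5 (CTCF at 7.5 min). Deviations of same-numbered libraries correlated at 0.043 to 0.18, except at -0.012 for CTCF at 7.5 min and -0.11 for RAD21 in recovery, so the numbers were not taken to pair the libraries. The crossed pairing of the last, chosen after seeing the data, gave 10 kept and 1 lost site. Depth is unknown, so a site without a peak may be one that was not detectable.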
